A study of Danio rerio with 6 samples.

Results

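Transcripts of 50 nuclear genes for complexes II to V of the mitochondrial respiratory chain were measured in the eyes of samd7 mutant and WT zebrafish larvae. The members were all rows of the deposited table whose symbol begins with sdha, sdhb, sdhc, sdhd, uqcr, cox4 to cox8 or atp5, or is cyc1, which gave 50 of 14781 genes. They comprise 8 genes of complex II, 3 of them assembly factors, 9 of complex III, 17 of complex IV and 16 of complex V. The animals were 3 larvae homozygous for the stl888 allele of samd7 (samd7stl888/stl888, called samd7-/-) and 3 WT larvae, all 5 days post fertilization and born to heterozygous parents. The eyes of a single larva made 1 library, so p-values measure the spread between larvae together with that of dissection and library preparation, and a whole eye mixes lens, pigment epithelium, retina and surface tissue. The samd7 product is a Polycomb group protein found in photoreceptors, and the study's title gives its question as the keeping of photoreceptor identity.

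The respiratory chain sits in the inner mitochondrial membrane. Complex II (succinate dehydrogenase) passes electrons from succinate to ubiquinone, complex III passes them from ubiquinol to cytochrome c, and complex IV (cytochrome c oxidase) hands them to oxygen. Complex V (ATP synthase) uses the proton gradient that complexes I, III and IV build to make ATP. Complex II is made wholly from nuclear genes, whereas complexes III, IV and V join nuclear subunits to a few made from mitochondrial DNA. Photoreceptors are among the cells with the highest energy demand of the body and pack mitochondria into the inner segment next to the light-sensing outer segment.

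The libraries held 23185755 to 23550042 reads assigned to genes in samd7-/- and 23387568 to 26672265 in WT. Values are normalized read counts, that is reads divided by 1 size factor per library. They are not per transcript length, so levels are compared between larvae for 1 gene and not between genes. Fold changes set samd7-/- over WT and are given as log2, after 1 was added to each value. They were tested with limma on every gene that reached a value of 10 in 3 or more libraries, as 48 of the 50 members did. The samd7 transcript was higher in each samd7-/- larva than in any WT larva, at 4691, 4070 and 4479 against 1813, 1587 and 1931 in WT (log2 1.31, SE 0.12, adjusted p = 0.00491, limma). The sample labels do not say what the stl888 change does to the transcript, so this level is no check of a loss of function.

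No gene of complexes II to V passed the test between the genotypes. At an adjusted p under 0.05, 0 of the 48 tested members were higher and 0 lower with limma, where 0.0418% of all 11959 tested genes were higher and 0.259% lower. The smallest adjusted p of a member was 0.649. At an unadjusted p under 0.05, 2 members were lower (cox4i2 and sdhaf2) and 0 higher, while 6.33% of all tested genes lay under that limit. DESeq2 and edgeR on recovered reads also called 0 members, against 0.679% and 0.283% of all genes, and so did the authors' deposited table, where the smallest adjusted p of a member was 0.343. In bulk tissue, fewer cells of a type and less RNA per cell cannot be told apart.

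The intervals set how large a difference could have gone unseen. The 95% interval of the log2 fold change lay within a 2-fold change in either direction for 45 of the 48 tested members, and within a 1.5-fold change for 40. The median half-width of the interval was 0.34 on the log2 scale. The 3 members whose interval passed a 2-fold change were sdhda, cox5b2 and cox7a1, whose means over the 6 libraries were the lowest among tested members.

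**Figure D1:**
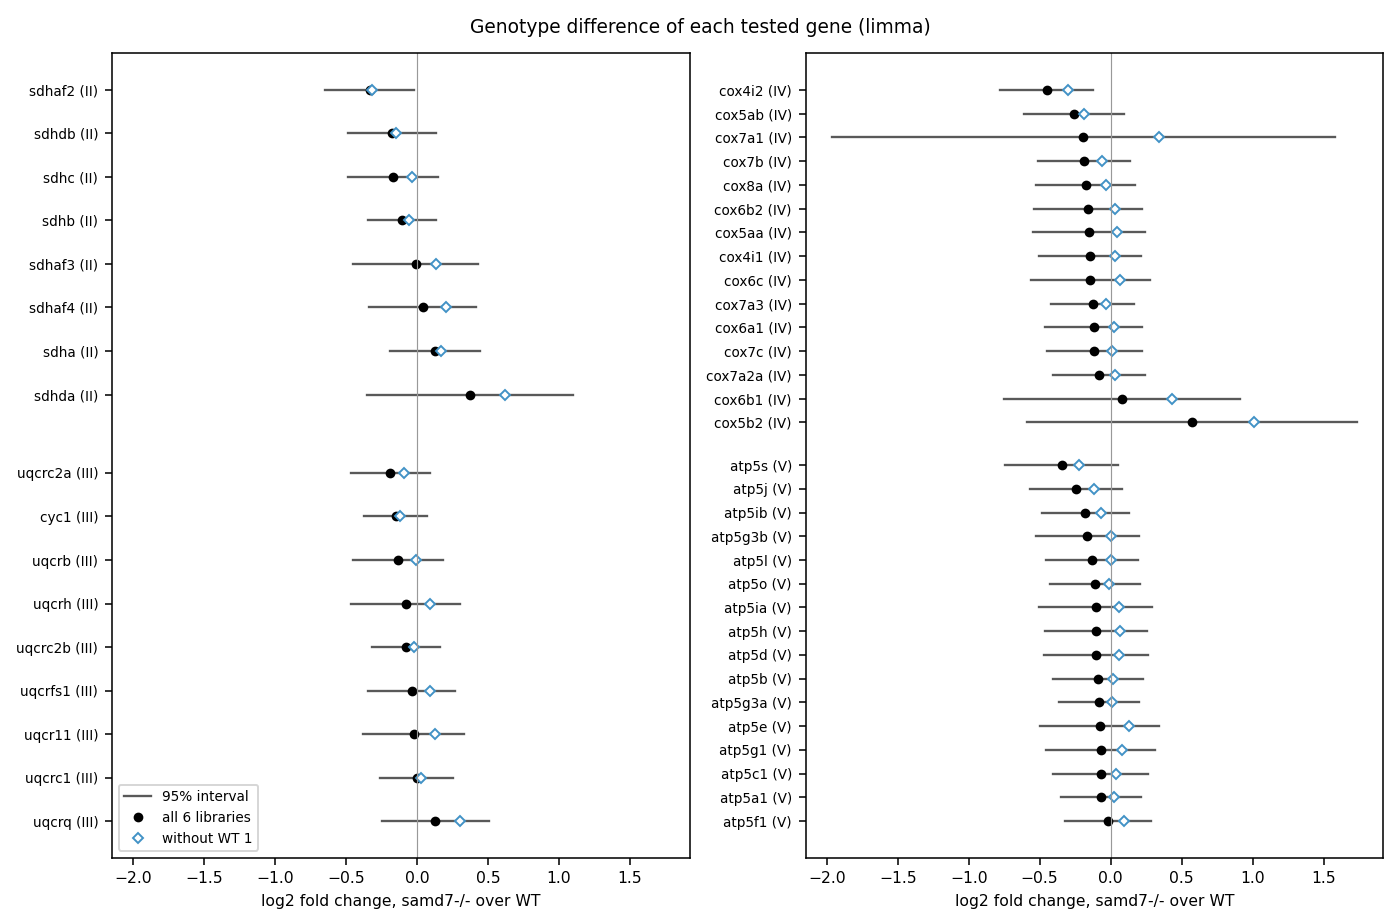
Log2 fold change, samd7-/- over WT, of the 48 tested genes, with the complex in brackets: black points and lines show the fit to all 6 libraries with its 95% interval, and open diamonds the fit without WT 1. The intervals of 46 genes include 0, and leaving out WT 1 moves the points of all 48 genes to the right, so that 17 rather than 42 lie below 0.

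Most fold changes were small and negative, and that direction rested on 1 larva. The log2 fold change lay below 0 for 42 of 48 members, against 49.9% of all tested genes, with a median of −0.11 over the members and 0.00 over all tested genes. Without WT 1 the number below 0 was 17 of 48, against 49.8% of all tested genes, and the median was 0.03. With quantile normalization it was 35, with a median of −0.06. Only 3 members, cox4i2, sdhaf2 and cyc1, had samd7-/- values all below the WT values and 0 had them all above, against 6.39% and 6.66% of all tested genes. Without WT 1 their log2 fold changes were −0.30, −0.32 and −0.12. Since the genotypes do not overlap for these 3, the sign could not change with any library left out.

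The larva WT 1 had the highest value of the 6 for 44 of the 48 tested members, where 27.1% of all tested genes were highest in that library. It stood above both other WT larvae for 47 of them, the exception being uqcrc1. The other members with their highest value elsewhere were sdha, sdhdb and cox5b2, all highest in samd7-/- 3. The lowest value lay in WT 3 for 23 members, in samd7-/- 3 for 11, in samd7-/- 1 and samd7-/- 2 for 5 each and in WT 2 for 4. WT 1 was lowest for 0 members, whereas it was lowest for 3380 of all 11959 tested genes, more than any other library. The WT larvae spanned more than the samd7-/- larvae for 43 members, and their span on the log2 scale was wider than the genotype difference for 45. The median coefficient of variation between larvae was 6.44% in samd7-/- and 17.7% in WT. These spans and variations were not computed over all tested genes, so they cannot be called particular to the members.

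**Figure D2:**
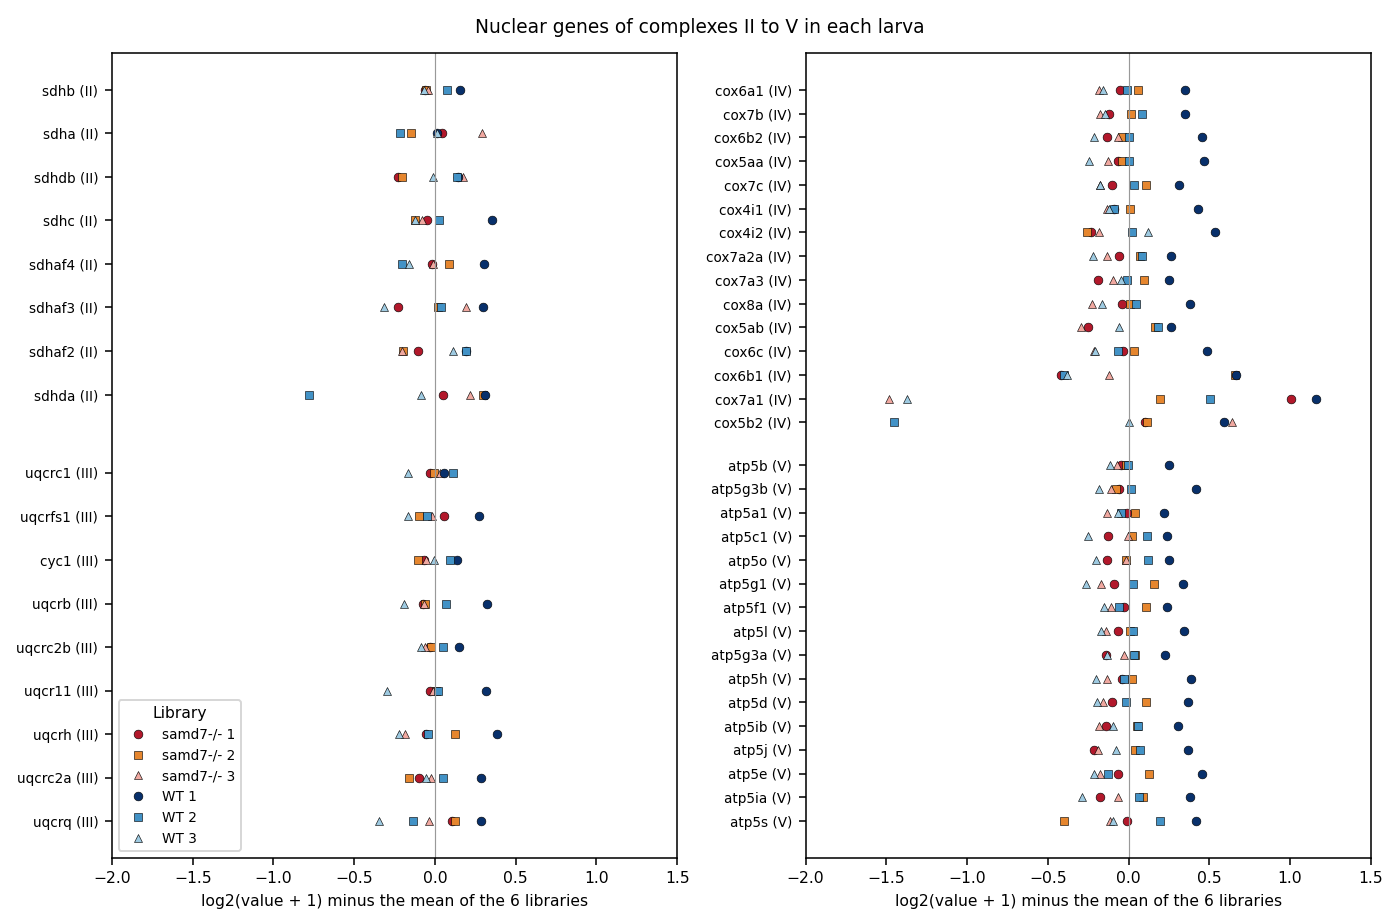
Each of the 48 tested genes in each larva, as log2(value + 1) minus the gene's mean over the 6 libraries; colours and symbols mark the larvae, and the complex stands in brackets. The dark blue points of WT 1 lie farthest to the right for 44 genes, while the other larvae of both genotypes overlap for most genes. Among the exceptions, samd7-/- lies below WT 2 and WT 3 for cox4i2, sdhaf2 and cyc1. It lies above them for uqcrq, sdhaf4, sdhda and cox5b2.

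The sum over each of the 4 complexes was highest in WT 1 and lowest in WT 3 among the WT larvae. All 50 members together stood at 302175, 317451 and 299738 normalized counts in samd7-/- and at 387658, 321778 and 286493 in WT. All 3 samd7-/- sums lie between those of WT 2 and WT 3. As a share of all reads assigned to genes the members took 1.31, 1.35 and 1.32% in samd7-/- and 1.52, 1.24 and 1.2% in WT, so on this scale the mutants lie above WT 2 and WT 3 and below WT 1. The ratio of summed levels, samd7-/- over WT, was 0.961 for complex II, 0.949 for complex III, 0.881 for complex IV and 0.927 for complex V, and without WT 1 it was 1.001, 1.02, 0.987 and 1.01.

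Markers of several cell types differed between the same larvae. The summed level of 7 rod markers was 100644, 43428 and 97355 in samd7-/- and 426310, 355457 and 315929 in WT. That of 12 cone markers was 3030703, 2846060 and 3132511 in samd7-/- and 3111707, 2432632 and 2025863 in WT. Among the WT larvae both sums thus ran in the order of the respiratory chain sum, highest in WT 1 and lowest in WT 3. Among the mutants they did not, since the respiratory chain sum was highest in samd7-/- 2, where both the rod and cone sums were lowest. The sum of 7 skin and cornea markers also ran that way, at 286614, 268246 and 266107.5 in WT, with WT 2 and WT 3 close together. As a share of all reads it did not, at 1.12, 1.03 and 1.11% in WT 1, WT 2 and WT 3. Nor did all single skin markers: among the WT larvae krt4 was highest in WT 2 and krt5 lowest in WT 1. Single rod and cone markers did not all follow the WT order. Of the 6 libraries, WT 1 was highest for 6 of the 7 rod markers and 6 of the 12 cone markers. It was lowest for 2 cone markers, pde6c and grk7a. Between genotypes the rod sums of all 3 mutants lay below every WT sum, whereas the cone sums and the respiratory chain sums overlapped. The cone sum joins markers that lay on opposite sides, since the genotypes did not overlap for 4 markers higher in samd7-/- and for 4 lower, of 12. The cone arrestin arr3b was at 383126, 375321 and 393177 in samd7-/- and 138410, 158948 and 128212 in WT. The other cone arrestin, arr3a, was at 1059, 855 and 1048 in samd7-/- and 144048, 116456 and 92408 in WT. The green opsin opn1mw1 was at 0, 1.01 and 1.96 in samd7-/- and 401000, 324035 and 221550 in WT. These 3 were chosen after their values were seen, and reads of near-identical opsin copies may not be told apart. The sum of 15 skeletal muscle markers was 45187, 26194 and 70579 in samd7-/- and 100357, 36734 and 54052 in WT, again highest in WT 1. Lens markers, 12 in number, were highest in WT 2, at 1422565, 1899516 and 1281744 in samd7-/- and 1629472, 2841215 and 2210035 in WT. The sum of 7 pigment epithelium markers was 92189, 222651 and 60877 in samd7-/- and 152828, 81792 and 206085 in WT. That of 5 blood markers was 5802, 12794 and 5810 in samd7-/- and 9490, 3229 and 10531.5 in WT. Among the WT larvae both were highest in WT 3 and lowest in WT 2. The sum of 4 Muller glia markers was 129440, 121196 and 149118 in samd7-/- and 144320, 119907 and 135288.5 in WT. All rod and lens markers, and 11 of the 12 cone markers, were above 0 in every library, and the part of any cell type in the level of WT 1 was not tested.

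**Figure D3:**
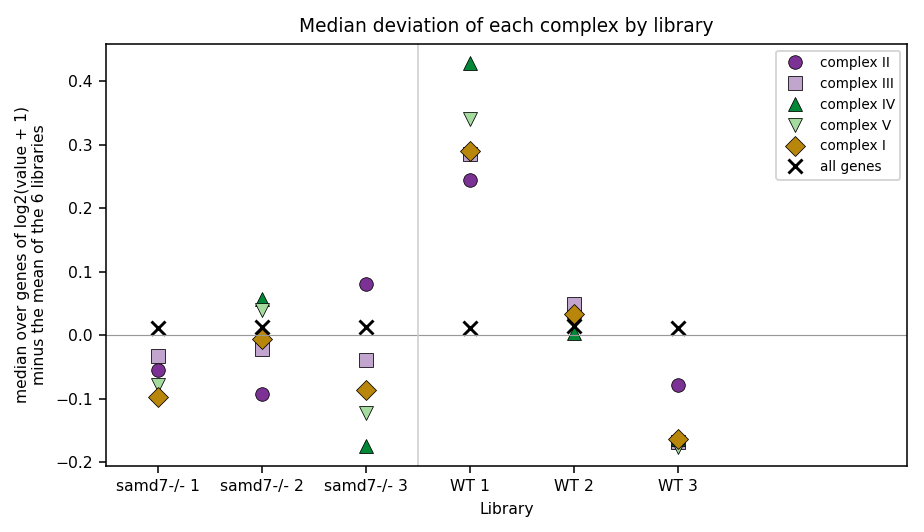
Median deviation of the tested genes of each complex from their mean over the 6 libraries, on the log2(value + 1) scale, by library; complex I and all tested genes are shown beside complexes II to V. WT 1 lies highest for every complex shown, at 0.25 for complex II, 0.29 for III, 0.43 for IV and 0.34 for V, while the median over all tested genes is near 0 in each library.

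Complex II held both sdha and sdhdb, which were highest in samd7-/- 3 and not in WT 1. sdha encodes the flavin-bearing catalytic subunit. It had 5539, 4834 and 6577 normalized counts in samd7-/- and 5422, 4609 and 5419 in WT. The genotypes overlap, with samd7-/- 3 the highest of the 6 and WT 2 the lowest, and the log2 fold change was 0.13 (SE 0.14, 95% interval −0.19 to 0.45, adjusted p = 0.885, limma). sdhb, the iron-sulfur subunit and the complex II gene with the highest counts, had 9035, 9053 and 9167 in samd7-/- and 10507, 9909 and 8977 in WT (log2 −0.11, interval −0.35 to 0.13). The mutants lie together just above WT 3. sdhc, which encodes a membrane anchor that binds ubiquinone and lies on the chromosome of samd7 in RefSeq, had 1828, 1733 and 1790 in samd7-/- and 2418, 1923 and 1736 in WT, with a log2 difference of −0.17 (adjusted p = 0.853, limma).

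The other membrane anchor of complex II comes from a pair of gene copies. sdhdb had 2472, 2513 and 3270 counts in samd7-/- and 3195, 3182 and 2871 in WT, with samd7-/- 3 apart from the other mutants (log2 −0.17, adjusted p = 0.848, limma). sdhda had 75.7, 90.0 and 85.1 in samd7-/- and 90.8, 42.2 and 68.8 in WT (log2 0.37, interval −0.35 to 1.1). sdhdb took 97.0 ± 0.461% of the counts of both copies in samd7-/- and 97.9 ± 0.748% in WT (SD, n = 3 each; exact permutation p = 0.2, two-sided), with the highest share in WT 2, at 98.7%.

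Among the assembly factors of complex II, sdhaf2 was the one whose genotypes did not overlap. sdhaf2, which helps attach the flavin to the catalytic subunit, had 326, 306 and 305 counts in samd7-/- and 402, 401 and 380 in WT. Every mutant lies below every WT larva, and WT 1 does not stand apart from WT 2 for this gene. The log2 fold change was −0.33 (SE 0.14, interval −0.65 to −0.02, unadjusted p = 0.0389, adjusted p = 0.76, limma), and the adjusted p lay between 0.632 and 0.987 over all settings tried. sdhaf3 and sdhaf4 had log2 fold changes of −0.01 and 0.04, with overlapping genotypes.

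No gene of complex III had a log2 fold change farther from 0 than −0.19. uqcrc1, a core subunit, had 9257, 9428 and 9693 counts in samd7-/- and 9860, 10246 and 8429 in WT, with the mutants inside the WT range. Its log2 fold change was −0.00 (interval −0.26 to 0.25, adjusted p = 0.996, limma), or 0.08 with quantile normalization. cyc1, cytochrome c1, passes electrons on to cytochrome c. It had 6689, 6514 and 6737 in samd7-/- and 7692, 7482 and 6988 in WT, so that the genotypes did not overlap, with a log2 fold change of −0.15 (SE 0.10, interval −0.38 to 0.07, adjusted p = 0.825, limma). uqcrfs1, the Rieske iron-sulfur protein, had 8024, 7210 and 7617 in samd7-/- and 9309, 7464 and 6859 in WT (log2 −0.04).

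The remaining genes of complex III include the second core subunit and 4 small subunits. uqcrc2b took 67.8 ± 1.35% of the counts of the uqcrc2 copies in samd7-/- and 66.1 ± 1.14% in WT (SD, n = 3 each; exact permutation p = 0.3, two-sided), with log2 fold changes of −0.07 for uqcrc2b and −0.19 for uqcrc2a. uqcrq was the only gene of this complex with a positive fold change in the fit to all libraries, at 2210, 2236 and 1996 in samd7-/- and 2500, 1866 and 1615 in WT. All mutants lie between WT 1 and WT 2, and the log2 fold change of 0.13 (interval −0.25 to 0.51, adjusted p = 0.9, limma) was 0.30 without WT 1. The fold changes of uqcrb, uqcrh and uqcr11 were −0.13, −0.08 and −0.02.

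In complex IV the gene farthest from 0 toward lower values was cox4i2. The cox4 subunit binds ATP and tunes the enzyme's rate, and in mammals COX4I2 is a form of lung and of cells short of oxygen. cox4i2 had 3499, 3433 and 3613 counts in samd7-/- and 5945, 4170 and 4475 in WT. Every mutant lies below every WT larva, and WT 1 is far above the other WT larvae. The log2 fold change was −0.45 (SE 0.14, interval −0.78 to −0.12, unadjusted p = 0.0131, adjusted p = 0.649, limma), the smallest adjusted p of any member, and −0.30 without WT 1. The adjusted p lay between 0.343 and 0.987 over all settings tried. The authors' deposited table gives a log2 fold change of −0.47 and an adjusted p of 0.343.

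Its partner cox4i1 allowed a comparison inside each larva. cox4i1 had 4422, 4741 and 4287 counts in samd7-/- and 6341, 4425 and 4327 in WT, with overlapping genotypes and a log2 fold change of −0.14 (interval −0.51 to 0.22, adjusted p = 0.884, limma). cox4i2 took 44.2, 42.0 and 45.7% of the counts of both genes in samd7-/- and 48.4, 48.5 and 50.8% in WT. In this share WT 1 lies with WT 2, and the genotypes do not overlap. The means were 44.0 ± 1.87% in samd7-/- and 49.2 ± 1.38% in WT (SD, n = 3 each), a difference of −5.28 percentage points (two-sided exact permutation p = 0.1, the lowest this design allows; 1 after Benjamini-Hochberg adjustment over 10 families of gene copies). With any 1 library left out, the share of cox4i1 was higher in samd7-/- by 4.30 to 6.16 points. As the shares do not overlap, only the size and not the direction could change.

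**Figure D4:**
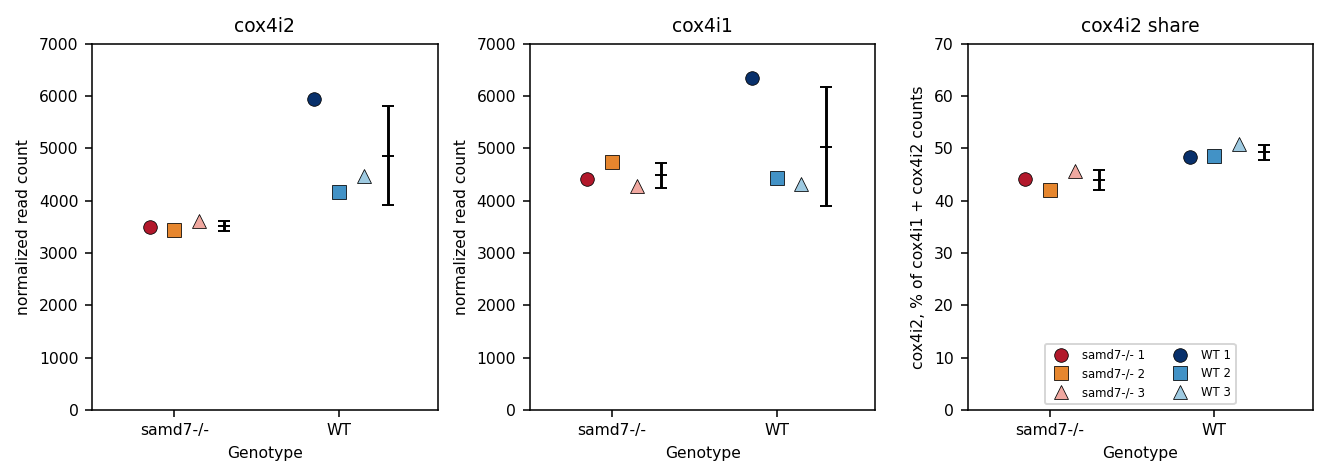
Normalized read counts of cox4i2 and cox4i1 and the share of cox4i2 in the counts of both, by genotype; each symbol is 1 larva, and bars show mean ± SD (n = 3). The 3 samd7-/- larvae lie below the 3 WT larvae for cox4i2 and for its share, while for cox4i1 the larva WT 1 stands above the other 5.

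The other nuclear subunits of complex IV surround the catalytic core. cox6a1, the complex IV gene with the highest counts, had 9394, 10150 and 8594 in samd7-/- and 12432, 9682 and 8739 in WT (log2 −0.12, interval −0.46 to 0.22), with every mutant below WT 1. Of the cox5a copies, cox5aa took 69.2 ± 3.31% in samd7-/- and 67.6 ± 3.33% in WT (SD, n = 3 each; exact permutation p = 1, two-sided). cox5ab had 2235, 2989 and 2171 counts in samd7-/- and 3201, 3020 and 2559 in WT, with samd7-/- 2 among the WT values (log2 −0.26, interval −0.61 to 0.10, adjusted p = 0.82, limma). cox6b2 took 95.9 ± 1.47% of cox6b counts in samd7-/- and 96.6 ± 0.718% in WT (exact permutation p = 0.6, two-sided, n = 3 each). The rarer copy cox6b1 ran at 195, 412 and 239 in samd7-/- and 413, 197 and 199 in WT, so that 1 larva of each genotype had about the same high value. cox6c, cox7b, cox7c and cox8a had log2 fold changes between −0.11 and −0.19, all with overlapping genotypes. cox5b2 had 54.1, 54.6 and 79.2 in samd7-/- and 76.5, 17.8 and 50.5 in WT, where WT 2 lies apart from the rest. Its log2 fold change of 0.57 has an interval of −0.59 to 1.74 (adjusted p = 0.857, limma).

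The cox7a family and the forms known from mammalian muscle included the gene with the widest spread between larvae, cox7a1. cox7a2a took 55.2 ± 1.25% of the counts of cox7a1, cox7a2a and cox7a3 in samd7-/- and 54.4 ± 2.13% in WT (SD, n = 3 each; exact permutation p = 0.7, two-sided). cox7a3, which RefSeq lists as cox7a2l, a factor that joins complexes III and IV into supercomplexes, had a log2 fold change of −0.13. cox7a1, the heart and skeletal muscle form in mammals, had 109, 61.7 and 18.6 counts in samd7-/- and 121, 76.6 and 20.2 in WT. The larvae of each genotype spread over far more than the genotype means differed, and the log2 fold change of −0.19 had an interval of −1.96 to 1.58. Among the mutants the sum of the muscle markers was highest in samd7-/- 3, where cox7a1 was lowest. Among the WT larvae both were highest in WT 1. The part of muscle in the level of cox7a1 was not tested. The members that did not reach the filter were cox6a2 and cox8b, both likewise muscle forms in mammals. cox6a2 was seen with 13 reads over the samd7-/- libraries and 14 over the WT libraries (ratio per read 1.01, 95% counting interval 0.437 to 2.31), and cox8b with 16 and 20 reads (0.87, interval 0.421 to 1.77). Their partners cox6a1 and cox8a took at least 99.7% of the counts of each pair in every larva. The exact permutation p for these 2 shares was 0.9 each, two-sided, with 3 larvae per genotype.

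All 16 genes of complex V were highest in WT 1. All 16 fold changes lay below 0 with 6 libraries, but 4 did without WT 1 and 12 with quantile normalization. In the rotary head, atp5b, the catalytic beta subunit, had 53506, 54596 and 52651 counts in samd7-/- and 65791, 55145 and 51027 in WT. The mutants lie between WT 2 and WT 3, and the log2 fold change was −0.09 (interval −0.41 to 0.23, adjusted p = 0.919, limma), or 0.23 with quantile normalization. atp5a1, the alpha subunit, had 20312, 21000 and 18660 in samd7-/- and 23784, 19757 and 19504 in WT (log2 −0.07). The gamma, delta and epsilon subunits of the central stalk, atp5c1, atp5d and atp5e, had log2 fold changes of −0.07, −0.10 and −0.08.

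The outer stalk and the membrane part of the ATP synthase had fold changes of like size. The outer stalk genes atp5o, atp5f1, atp5h and atp5j had log2 fold changes of −0.11, −0.02, −0.10 and −0.24. atp5j, the one of these farthest from 0, had 2948, 3507 and 2990 counts in samd7-/- and 4404, 3590 and 3232 in WT, and only samd7-/- 2 lies within the WT range (interval −0.57 to 0.08, adjusted p = 0.82, limma). The c subunit, whose ring turns as protons pass, comes from atp5g1, atp5g3a and atp5g3b. atp5g3b took 55.6 ± 2.18% of their counts in samd7-/- and 57.2 ± 1.19% in WT (SD, n = 3 each; exact permutation p = 0.5, two-sided). Its values were 20378, 20074 and 19640 in samd7-/- and 28268, 21423 and 18676 in WT, with log2 fold changes of −0.16 for atp5g3b, −0.08 for atp5g3a and −0.07 for atp5g1, the last being 0.02 with quantile normalization. The e subunit, which helps pair ATP synthases into dimers, was split as 64.5 ± 1.23% from atp5ib in samd7-/- and 65.6 ± 2.18% in WT (SD, n = 3 each; exact permutation p = 0.6, two-sided), the rest being atp5ia. atp5l, the g subunit, had a log2 fold change of −0.13.

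atp5s lay farthest from 0 in this group. It is listed in RefSeq as dmac2l and is not one of the core subunits. It had 648, 494 and 602 counts in samd7-/- and 871, 745 and 609 in WT. samd7-/- 1 lies above WT 3, so the genotypes overlap, and the log2 fold change was −0.34 (SE 0.17, interval −0.74 to 0.05, adjusted p = 0.791, limma).

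Set against the median member of the same larva, most members differed little between genotypes. The difference in mean distance from that median, samd7-/- minus WT, was −0.34 for cox4i2, −0.23 for atp5s and −0.22 for sdhaf2 on the log2 scale. On the other side it was 0.24 for sdha, 0.24 for uqcrq, 0.48 for sdhda and 0.68 for cox5b2. On this scale the larvae of both genotypes did not overlap for cox4i2, atp5s, atp5j and cox7b, all lower in samd7-/-, and for sdhaf4, uqcrq and sdhda, all higher. That is 4 lower and 3 higher of 48. With the same median taken off, 2.42% of all tested genes lay apart as lower and 8.52% as higher, against 6.39% and 6.66% without this step. The median is the members' own and stood highest in WT 1, which shifts all other genes. The shares over all genes on this scale are therefore no fair measure for the members. The values of the members are differences of relative level within a larva, given as a description.

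Genes that assemble or serve these complexes did not pass either. Of 103 tested companion genes outside the 50 members, 0 rose and 0 fell with limma, DESeq2 or edgeR (adjusted p under 0.05). At an unadjusted p under 0.05, 1 was higher and 3 lower. Of all tested genes, 0.301% and 6.33% lay under these limits with limma. The median log2 fold change of the companion genes was −0.05. Of them 65 lay below 0, or 46 without WT 1, against 49.9% and 49.8% of all tested genes. For cytochrome c, the carrier between complexes III and IV, cycsb was the only gene matched. It had 7011, 6184 and 5830 counts in samd7-/- and 9941, 8374 and 6945 in WT. Only samd7-/- 1 lies within the WT range (log2 −0.40, SE 0.15, interval −0.74 to −0.05, adjusted p = 0.732, limma). hccsa.1, found through RefSeq for hccsa, which encodes the enzyme that attaches heme to cytochrome c, had 301, 314 and 329 in samd7-/- and 432, 460 and 412 in WT. Its genotypes do not overlap, and its log2 fold change was −0.46 (SE 0.14, interval −0.78 to −0.15, unadjusted p = 0.00913, adjusted p = 0.613, limma) and −0.47 without WT 1. The other listed copy, hccsb, was not lower, at 1898, 1830 and 2003 in samd7-/- and 1896, 1822 and 1782 in WT. The genotypes overlap for hccsb (log2 0.06, interval −0.18 to 0.29, adjusted p = 0.933, limma). Besides cycsb and hccsa.1, the companion genes cmc1 and mterf2 had an unadjusted p under 0.05 (limma). cmc1 is a complex IV assembly gene (log2 −0.37) and mterf2 a regulator of mitochondrial transcription (log2 0.59), with adjusted p = 0.739 and 0.65 (limma).

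By list, 0 of 7 tested complex III assembly genes, 0 of 29 for complex IV, 0 of 6 for complex V, 0 of 16 biogenesis regulators, 0 of 26 carriers and import genes and 0 of 16 citric acid cycle genes passed (limma). Their medians on the log2 scale were −0.14, −0.08, −0.08, −0.03, −0.01 and −0.05, against 0.00 over all tested genes. The gene with the highest mean of each list was uqcc1 (log2 −0.02), higd1a (0.26), atpif1b, an inhibitor of ATP synthase (−0.11), yy1a (−0.15), slc25a5, the carrier that exchanges ADP for ATP (−0.14), and mdh2, malate dehydrogenase (−0.18). WT 1 was highest for all 7 complex III and all 6 complex V companion genes and for 19 of the 29 of complex IV. It was highest for 7 of 16 citric acid cycle genes and 7 of 16 biogenesis regulators.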

How the data were processed

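Libraries were made from 10 ng of total RNA with a SMARTer Ultra Low kit, 12 cycles of cDNA and 12 of library amplification, and read as 150 bp pairs, per the labels' protocols. The kit does not mark strand, and reads of near-identical copies may be split among them. The submitters' processing notes name STAR 2.7.2b, HTSeq 0.9.1 and Trim Galore 0.6.1, with DESeq2 1.34.0, R 4.1.3 and build danRer10. No annotation is named in these sources. What the authors deposited for each gene and library is a normalized signal: the values show counts of reads scaled by 1 size factor. The table also holds the authors' own log2 fold change and adjusted p-value, under DESeq2's column names per the file headers.

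In each library 100% of values were whole multiples, within 0.001, of the value of 1 read, and reads were recovered as these multiples. For samd7-/- 2 that value, 1.01, is too near 1 for an automatic check, which did not accept it. DESeq2 1.42.0 on these reads gave the authors' fold changes within 0.001 for 13843 of 13846 genes.

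Groups and replicate numbers came from sample titles. The main test was limma-trend (limma 3.58.1, R 4.3.3) on log2(value + 1), 2 groups, no covariate, 2-sided, with Benjamini-Hochberg adjustment over 11959 genes and a threshold of 0.05. The added 1 shrinks the fold changes of low genes. Shares of gene copies were compared with exact permutation tests; 3 against 3 cannot give a p under 0.1. Counting intervals (95%) cover counting error only. Scripts were tested on simulated data with 200 changed genes.

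The other settings tried were a replicate block, no filter, a minimum of 50, pseudocounts of 0.5 and 10, TMM factors, quantile normalization, robust moderation, DESeq2, edgeR 4.0.16 on recovered reads, the authors' deposited table and each library left out. Named genes were those with the highest mean per complex, the 4 largest log2 fold changes in each direction, all gene copies and the members not tested; others, such as cyc1, atp5j and uqcrfs1, were chosen after their values were seen. Members and lists were chosen with earlier results of these data known. In RefSeq (GRCz12tu) 33 members matched by symbol and 17 by synonym, and 2, sdhc and uqcr11, lie on the chromosome of samd7. Lengths and mitochondrially encoded genes were not used here.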

Additional observations from a re-analysis of the deposited data

How the results depend on the processing

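The count of members called, 0 higher and 0 lower, held in all settings tried, as did that of the companion genes. Over all genes, 5 were higher and 31 lower in samd7-/-. These counts were 24 and 66 with DESeq2 and in the authors' deposited table, and ran from 1 to 5 and from 4 to 23 with 1 library left out. Members below 0 numbered 17 to 45 with 1 library left out, the lowest without WT 1, and the median log2 fold change ran from −0.23 to 0.025. The replicate numbers were not taken as pairs in the main fit, and the sample titles do not say whether they pair the larvae. Same-numbered deviations correlated at 0.029, 0.183 and −0.002, and those of unlike numbers at −0.159 to 0.145, which cannot decide it. The replicate block gave 42 members below 0, a median of −0.11 and 1 member at an unadjusted p under 0.05. Single genes were followed over the settings only for the highest mean per complex, the largest fold changes and the gene copies. Among these genes, 3 log2 fold changes turned positive with quantile normalization, uqcrc1 to 0.0764, atp5b to 0.23 and atp5g1 to 0.0212. Other members changed sign too.

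The genes followed by name with 1 library left out were the same, so this list too does not cover all members. Among them, log2 fold changes that changed sign ran from −0.0104 to 0.30 for uqcrq, −0.0118 to 1.01 for cox5b2, −0.0878 to 0.053 for uqcrc1, −0.23 to 0.0248 for cox6a1, −0.17 to 0.0144 for atp5b, −0.24 to 0.0337 for cox4i1, −0.31 to 0.0435 for cox5aa, −0.23 to 0.43 for cox6b1, −0.31 to 0.0274 for cox6b2, −0.93 to 0.50 for cox7a1, −0.21 to 0.0305 for cox7a2a, −0.22 to 0.0822 for atp5g1, −0.17 to 0.0064 for atp5g3a, −0.30 to 0.0019 for atp5g3b and −0.28 to 0.0587 for atp5ia. Differences in share that changed sign, in percentage points, ran from −0.014 to 0.0054 for cox6a, −1.23 to 0.15 for cox6b, −0.357 to 1.75 for cox7a, −0.0453 to 0.0682 for cox8 and −2.02 to 0.0875 for atp5i. The cox7a share without cox7a3, added after the data were seen, kept its direction. None of these values passed a test in any setting, and the cause of the shifts was not tested. The 3 larvae per genotype and the low counts of sdhda, cox5b2 and cox7a1 limit the precision.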

Other observations

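Genes of complex I, which feeds electrons from NADH into the same chain, showed a like order of larvae. The set was the 41 tested genes whose symbol begins with nduf. It includes ndufaf assembly factors, and ndufa4 and ndufa4l, which were also counted among the complex IV assembly genes. Of the 41, 35 were highest in WT 1, against 27.1% of all tested genes. A log2 fold change below 0 was seen for 36, against 49.9% of all tested genes, with a median of −0.12. Without WT 1, 19 of 40 lay below 0, against 49.8%, with a median of 0.01. One of them fell, ndufs8b, where 0.259% of all tested genes were called lower. ndufs8b was at 0, 0 and 0 normalized counts in samd7-/- and at 394, 181 and 140 in WT (adjusted p = 0.00081, limma), a gene chosen after its values were seen. It reached the filter only through the WT libraries, so with a WT library left out it was not tested. Its copy ndufs8a was at 502, 499 and 513 in samd7-/- and 699, 510 and 1536 in WT, with overlapping genotypes (log2 −0.69, adjusted p = 0.791, limma). Whether complexes II to V differ from complex I in any of these values was not tested.

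Summed markers of amacrine and ganglion cells ran the other way among the WT larvae, and those of bipolar cells did not. The summed level of 5 amacrine cell markers was 17780, 17418 and 18502 in samd7-/- and 15458, 16206 and 18058 in WT, lowest in WT 1. That of 5 ganglion cell markers was 10450, 9532 and 11141 in samd7-/- and 8022, 8901 and 9899 in WT, again lowest in WT 1. One of these 5, gap43, was at 0 in every library. Single markers did not all do so: of the 6 libraries, WT 1 was lowest for 3 of the 5 amacrine markers. It was lowest for 3 of the 4 tested ganglion cell markers. The sum of 6 bipolar cell markers was 44926, 41752 and 51115 in samd7-/- and 44281, 43281 and 42190 in WT, highest in WT 1 among the WT larvae. Their part in the level of the respiratory chain genes was not tested.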
